A study of Mus musculus with 12 samples.

Results

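The comparison described here set 80% partial hepatectomy with G-CSF and HNF4a (PH80_G+H, n = 3) against 80% partial hepatectomy without them (PH80, n = 3). Its members were the genes with a normalised read count of at least 10 in at least 3 of these 6 samples, 12260 of the 13554 genes in the table. At that limit, Ptpn7 was the gene just inside, with a third-highest value of 10.2, and Kcnk10 the gene just outside, with 9.894. The study measured poly(A) RNA of mouse liver by RNA-seq in 12 samples, 3 in each of 4 groups, on postoperative day 3. Every sample came from a wild-type (WT) male mouse of strain C57Bl/6J; the other 2 groups were a 70% resection (PH70) and an 80% resection with a treatment labelled HC, an abbreviation that the labels do not spell out (PH80_HC). The form in which HNF4a was supplied, and the dose, route and timing of both agents, are, like the mice's age, not given in the sources used here. Since both agents were given together, their separate effects cannot be told apart. The labels do not state that samples of 1 group are different mice. The p-values therefore reflect only sample-to-sample spread, which may be technical.

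Partial hepatectomy removes liver lobes and leaves the remnant to regrow, mainly by division of mature hepatocytes that must go on making plasma proteins, bile acids and glucose. A remnant that is too small can fail while its cells divide. The study's title places its question in the extended resection, with vascular damage and proliferation as its themes. G-CSF is the cytokine that drives the formation and release of neutrophils and mobilises blood stem cells. It binds the receptor encoded by Csf3r and signals through JAK kinases and STAT3. HNF4a is a nuclear receptor that keeps up the expression of many genes of the differentiated hepatocyte and restrains hepatocyte division.

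The deposited values corresponded to between 9720887 and 44526542 recovered reads per sample over the series. The PH80 samples had 14967978, 28607072 and 20492997 reads, and the PH80_G+H samples had 13108757, 44526542 and 32568695. Hepatocyte transcripts dominated the 6 samples, with Alb, the albumin gene, at 7.05% to 11.7% of all normalised reads. Among the PH80 samples, replicate 2 stood apart with the highest levels of neutrophil and mitosis genes. Of the 6 samples compared, replicate 2 of PH80_G+H and replicate 1 of PH80 departed most in how values varied with transcript length. For genes and lists that PH80 replicate 2 moved most, values without it are given as well. In bulk liver, fewer cells of a type and less RNA per cell cannot be told apart.

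At day 3 the treated livers held more mRNA of interferon-response genes, clock-output genes and some metabolic genes than untreated 80% remnants, and less of 1 peroxidase gene. Past the threshold of an adjusted p of 0.05, 14 genes were higher in PH80_G+H (0.114% of genes tested) and 1 was lower (0.00816%). These 15 genes (0.122%) came from limma on log2(value + 1) with Benjamini-Hochberg adjustment over 12260 genes. Without adjustment, 682 genes were higher and 599 lower at p under 0.05, or 5.56% and 4.89%. Among the genes that rose were Cyp26b1, Upp2, Dbp, Nr1d1, Gbp6, Lpin1, Slc2a5, Pim3, Ifit1, Dhx58, B3galt1, Usp18 and Irgm1, and the gene that fell was Gpx7. The rises of these named genes ranged from 2.15-fold for Irgm1 to 7.81-fold for Cyp26b1. The calls lay near the threshold, and limma without the intensity trend, or after scaling every sample to the same total, made 0 calls, with smallest adjusted p-values of 0.0643 and 0.0627 and 1267 and 1147 genes at an unadjusted p under 0.05. edgeR's quasi-likelihood test on the recovered reads called 11 of the 15 genes and no others, and DESeq2 called 204 genes, 100 higher and 104 lower, among them all 15. Leaving out PH70 replicate 2, PH80 replicate 1, PH80 replicate 2 or PH80_G+H replicate 2 left 0 calls in limma, with 1148, 941, 909 and 874 genes at an unadjusted p under 0.05. Leaving out PH80_G+H replicate 1 gave 1 call, a lower gene that was not among the 15. Leaving out PH80_G+H replicate 3 gave 3 calls, all among the 15. Without PH80_HC replicate 1 or replicate 3, 26 or 24 genes were called. Over 25 alternatives, Lpin1 and Pim3 were called most often among the 15, in 17 each, counting calls in the same direction.

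**Figure D1:**
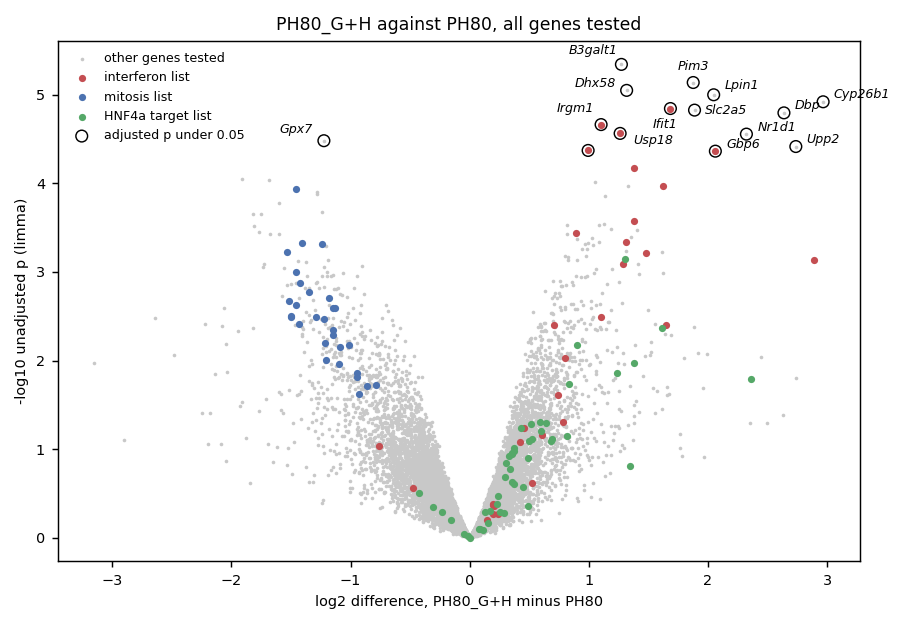
Each point is 1 of 12260 genes, with the log2 difference between PH80_G+H and PH80 on the x axis and -log10 of the unadjusted limma p on the y axis. The 15 circled genes passed an adjusted p of 0.05, and all 29 mitosis genes (blue) lie left of 0 without passing it.

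Ifit1, Dhx58, Usp18, Irgm1 and Gbp6 are induced by interferons, the cytokines of antiviral and antimicrobial defence, and all of these genes rose in the treated livers. Ifit1 (chromosome 19, 34640871 to 34650009 in GRCm38) encodes a protein that binds foreign RNA caps. Its values were 153, 77.8 and 165 in PH80 and 476, 354 and 393 in PH80_G+H. The lowest treated sample was thus above the highest untreated one, and also above every PH70 sample (143, 141 and 143) and every PH80_HC sample (104, 121 and 99.9). On the log2(value + 1) scale the rise was 1.68 (SE 0.26, 95% interval 1.13 to 2.24, adjusted p = 0.0246 in limma). Dhx58 (chromosome 11, 100694884 to 100704271) encodes LGP2, a sensor of viral RNA. It stood at 288, 207 and 271 in PH80 and at 616, 661 and 618 in PH80_G+H, a log2 difference of 1.32 (SE 0.19, adjusted p = 0.0246). The 3 treated values of Dhx58 lay close together and above all 9 other samples of the series.

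Usp18 (chromosome 6, 121245906 to 121270917) encodes the protease that removes the ubiquitin-like protein ISG15 from its targets and dampens signalling from the type I interferon receptor. It went from 354, 280.4 and 336 in PH80 to 857, 679 and 798 in PH80_G+H, a log2 rise of 1.26 (SE 0.20, adjusted p = 0.031). Irgm1 (chromosome 11, 48861968 to 48871683), a GTPase of cell-autonomous defence, stood at 688, 632 and 789.5 and 1593, 1434 and 1492 in these groups and rose by 1.10 (SE 0.17, adjusted p = 0.0295). For Usp18 and Irgm1 as for Ifit1 and Dhx58, the treated samples lay above all 9 others. Gbp6 (chromosome 5, 105270702 to 105293698), a guanylate-binding GTPase, had 39.4, 28.4 and 57.3 in PH80 and 151, 187 and 175 in PH80_G+H, with a log2 rise of 2.06 (SE 0.35, adjusted p = 0.0354). Gbp6 has a near-identical neighbour, Gbp10, so how reads were split between these genes is uncertain.

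The promoters of Ifit1 and Irgm1 hold the sequence through which such genes are commonly switched on, the interferon-stimulated response element. The 250 bases before each start site are given 5′ to 3′ on the gene's strand (RefSeq, GRCm38.p6), with matches to GAAANNGAAA on either strand in capitals. Ifit1 lies on the plus strand at chr19:34640639-34640888 and Irgm1 on the minus strand at chr11:48871421-48871670. Both RefSeq starts lie inside the GENCODE gene spans given above. The Irgm1 stretch therefore lies within its GENCODE span, and the Ifit1 stretch runs into its own. In Irgm1 the 2 matches overlap.
Ifit1: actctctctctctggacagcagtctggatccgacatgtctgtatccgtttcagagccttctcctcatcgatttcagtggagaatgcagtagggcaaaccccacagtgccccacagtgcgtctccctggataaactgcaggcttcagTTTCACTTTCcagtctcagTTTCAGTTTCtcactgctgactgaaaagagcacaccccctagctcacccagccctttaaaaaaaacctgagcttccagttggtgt
Irgm1: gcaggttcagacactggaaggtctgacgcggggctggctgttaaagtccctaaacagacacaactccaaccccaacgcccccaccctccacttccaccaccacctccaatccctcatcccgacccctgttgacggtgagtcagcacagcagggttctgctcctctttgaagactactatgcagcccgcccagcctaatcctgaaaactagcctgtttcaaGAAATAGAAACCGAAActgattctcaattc
From 250 bases before the start site to 50 after it, 14 of the 24 interferon-list genes with a promoter sequence (58.3%) held this element, against 386 of 9859 tested genes (3.92%). Of 11 called genes with a promoter sequence, 2 (18.2%) held the element. The list was made of known interferon-response genes, so its share describes the list and not these livers. A match describes the sequence and is not evidence of binding in these livers.

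Of 32 interferon-response genes listed for the analysis, 31 were tested, and 5 passed the threshold, all higher (Dhx58 was not on the list). In 29 of the 31 the treated mean was higher, and the list's median log2 difference was 0.80, beside 0.0018 over all genes tested. For 21 members the treated samples lay wholly above the untreated ones, a pattern that 8.89% of all genes tested showed, and for 1 they lay wholly below (8.03% of all genes). Without PH80 replicate 2 the median was 0.75, and 21 members did not overlap and were higher, beside 14.4% of all genes. Igtp, another GTPase, just missed the threshold (log2 difference 1.38, SE 0.24, adjusted p = 0.0511), as did Rsad2, which encodes viperin (1.62, SE 0.30, adjusted p = 0.0618). Isg15, the ubiquitin-like modifier, differed by 1.48 (SE 0.33, adjusted p = 0.128). The chemokine genes Cxcl10 (log2 difference -0.76, SE 0.42, adjusted p = 0.559) and Cxcl9 (-0.47, SE 0.41, adjusted p = 0.714), which respond to interferon gamma, were the 2 members with a lower treated mean. Igtp, Rsad2, Isg15, Cxcl10 and Cxcl9 were singled out after their values were seen. Of 22 lymphocyte markers, 12 were tested and limma called 0 of these, and 0 had an unadjusted p under 0.05. Over the 19 listed markers with deposited values, tested or not, summed normalised counts spanned 209 to 710 in PH80 and 178 to 429 in PH80_G+H. No tested marker was at 0, and the part of these markers in the interferon result was not tested.

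**Figure D2:**
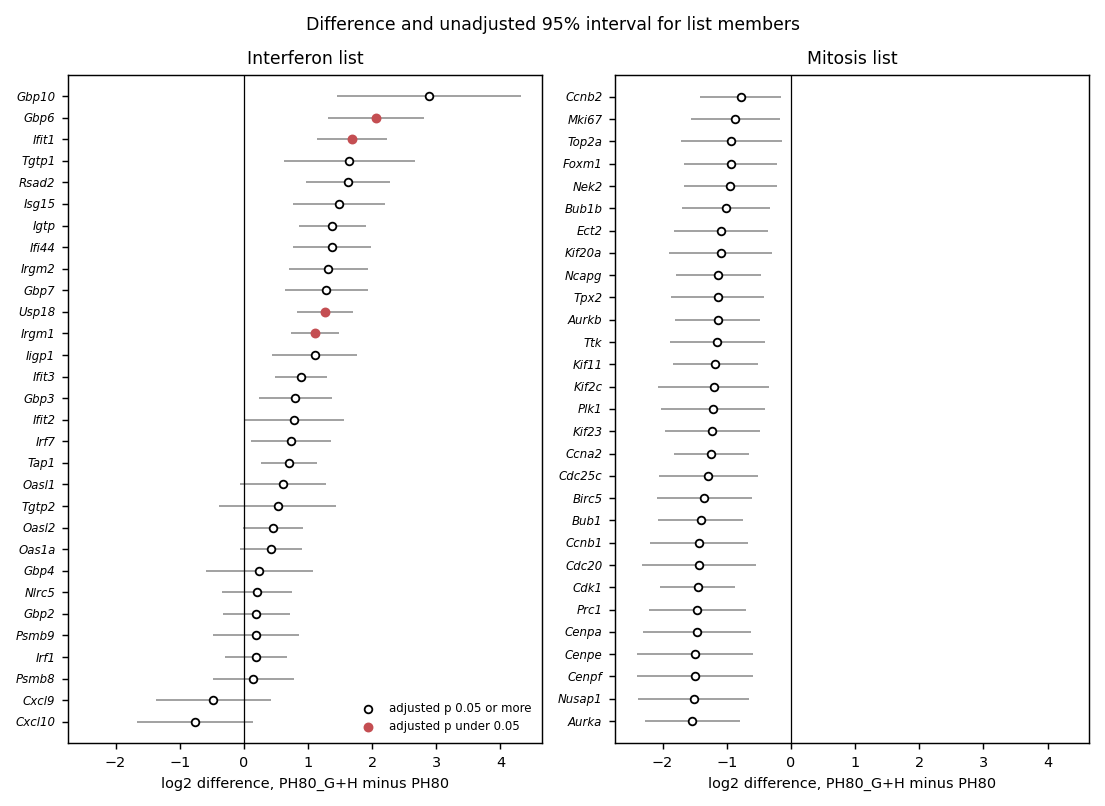
Points give the log2 difference between PH80_G+H and PH80 for members of the interferon list (left) and the mitosis list (right, 29 genes), with unadjusted 95% intervals as lines. Filled points mark genes past an adjusted p of 0.05; all interferon genes shown except Cxcl9 and Cxcl10 lie right of 0, and all 29 mitosis genes lie left of it.

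Neither Hnf4a nor the receptor of G-CSF passed the test. Hnf4a had 7482, 12710 and 10240 in PH80 and 13580, 12740 and 10430 in PH80_G+H, a log2 difference of 0.30 (SE 0.23, 95% interval -0.20 to 0.80, adjusted p = 0.682). The groups overlapped, with 1 untreated sample, replicate 2, within the treated range, and without that sample the difference was 0.48. Whether RNA from a supplied HNF4a would be counted under Hnf4a is unknown, since its form is not given. Csf3r, the receptor of G-CSF, stood at 73.1, 266 and 54.2 in PH80 and 68.1, 48.5 and 146 in PH80_G+H (log2 difference -0.37, SE 0.58, adjusted p = 0.852). Its highest value was that of PH80 replicate 2, and without that sample the difference was 0.31 (adjusted p = 0.876).

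Most hepatocyte genes known as HNF4a targets had a higher mean after treatment, but none passed the test. All 48 listed targets were tested, 41 had a higher treated mean, and the median log2 difference was 0.36. In 15 the treated samples lay wholly above the untreated ones (8.89% of all genes) and in 0 wholly below, and 8 were higher at an unadjusted p under 0.05 in limma (5.56% of all genes). DESeq2 called 1 of the 48 and edgeR 0. PH80 replicate 2 was the lowest of the 12 samples in the mean log2 level of these genes. Relative to the PH80 mean, that level was 0.07, -0.30 and 0.23 in PH80 and 0.54, 0.34 and 0.51 in PH80_G+H, and without PH80 replicate 2 the median difference was 0.28. Then 21 members lay wholly above (14.4% of all genes), and those higher at an unadjusted p under 0.05 were 4 (4.27% of all genes). The other treated arm was also above the PH80 mean, at 0.62, 0.49 and 0.53 in PH80_HC. Against PH80_HC the list's median log2 difference was -0.095, with 22 genes higher and 26 lower in PH80_G+H.

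Cyp8b1, the sterol 12-alpha-hydroxylase that sets the mix of bile acids, had the widest difference on the list. Its values were 423, 37.4 and 711 in PH80 and 1599, 556 and 1776 in PH80_G+H (log2 difference 2.36, SE 0.86, adjusted p = 0.331). The groups overlapped, and all 3 treated samples were below the PH70 samples (5987, 3947 and 4344). Without PH80 replicate 2, whose value was the lowest, the difference was 1.08. Cyp8b1 was also 1 of 3 genes among 36 listed targets with a promoter sequence (8.33%) that held the HNF4a-specific element CAAAGTCCA on either strand, against 65 of 9859 tested genes (0.659%). Cyp8b1 was picked for display by its difference, which did not pass the test, and the part of this element in that difference was not tested. The 250 bases before its start, on the minus strand at chr9:121916306-121916555 (RefSeq, GRCm38.p6), are given 5′ to 3′ with the element in capitals.
Cyp8b1: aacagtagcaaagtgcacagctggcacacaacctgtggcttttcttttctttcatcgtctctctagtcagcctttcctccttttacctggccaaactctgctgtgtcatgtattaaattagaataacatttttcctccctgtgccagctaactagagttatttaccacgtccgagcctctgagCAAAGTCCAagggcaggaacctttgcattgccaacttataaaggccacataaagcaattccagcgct
None of the 11 called genes with a promoter sequence held this element in the same window.

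Cyp7a1, whose product catalyses the first and limiting step from cholesterol to bile acids, had 1143, 79.2 and 988 in PH80 and 960.3, 1177 and 1305 in PH80_G+H (log2 difference 1.34, SE 0.89, adjusted p = 0.633). Here too the low outlying value was that of PH80 replicate 2, and without it the difference was 0.10. For the plasma proteins the log2 differences were 0.48 for Alb (SE 0.76, adjusted p = 0.855), -0.04 for Apoa1, the main protein of high-density lipoprotein (SE 0.43, adjusted p = 0.979), and 0.29 for Ttr, the thyroid hormone carrier transthyretin (SE 0.45, adjusted p = 0.851). F7, coagulation factor VII, differed by 0.36 (SE 0.21, adjusted p = 0.585). Without PH80 replicate 2 the Ttr difference was -0.0076. In Alb and F7 the treated samples lay wholly above the untreated ones, and in Apoa1 and Ttr they overlapped. Among 24 genes of hepatocyte transcription factors, 23 were tested and limma called 0 of them, 4 having an unadjusted p under 0.05. Cebpa, a factor of the mature hepatocyte, went from 3160.0, 1692 and 3393 to 5019, 4343 and 4403 (log2 difference 0.80, SE 0.23, adjusted p = 0.224), and Ppara, the nuclear receptor of fatty acid oxidation, from 866, 695 and 1394 to 1795, 2200.0 and 2067 (1.09, SE 0.32, adjusted p = 0.224). Both had no overlap between groups and were singled out after their values were seen.

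On the G-CSF side, 2 of 28 tested genes of JAK and STAT signalling passed the threshold, among them Pim3 (31 were listed). Pim3 (chromosome 15, 88862186 to 88865726) encodes a serine/threonine kinase whose family is transcribed in response to cytokines through STAT factors. It went from 423, 459.8 and 312 in PH80 to 1959, 1427 and 1081 in PH80_G+H, a log2 rise of 1.88 (SE 0.27, 95% interval 1.30 to 2.45, adjusted p = 0.0246). Every treated sample of Pim3 was above every untreated one, and the treated range overlapped those of PH70 (1006, 1512 and 1133) and PH80_HC (1102, 1036 and 637). Il6ra, the interleukin-6 receptor gene, stood at 60.5, 183 and 169 in PH80 and 429, 447 and 291 in PH80_G+H (log2 difference 1.62, SE 0.39, adjusted p = 0.15 in limma and 0.0136 in DESeq2). Lifr, the receptor of leukaemia inhibitory factor, differed by 0.93 (SE 0.31, adjusted p = 0.278). Socs3, the feedback inhibitor of STAT3 signalling, had 242, 1106 and 280.2 in PH80 and 416, 523 and 596 in PH80_G+H (log2 difference 0.26, SE 0.49, adjusted p = 0.88). The highest untreated value was that of replicate 2, and without it the difference was 0.96 (adjusted p = 0.59). The median log2 difference of the 28 genes was 0.25, with 6 wholly above (8.89% of all genes) and 1 wholly below (8.03% of all genes). Relative to the PH80 mean, the list stood at -0.15, 0.26 and -0.10 in PH80 and 0.30, 0.33 and 0.20 in PH80_G+H. It stood at 0.46, 0.41 and 0.36 in PH80_HC and 0.07, 0.40 and 0.49 in PH70. Its median log2 difference was 0.0696 against PH80_HC and -0.0555 against PH70.

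Neutrophil genes, the main targets of G-CSF in blood formation, did not pass the test in the liver. Of 38 listed, 28 were tested, 0 were called in limma and 2 were lower at an unadjusted p under 0.05. S100a8, which encodes a subunit of the neutrophil protein calprotectin, stood at 150.5, 2369 and 99 in PH80 and 482, 88.5 and 776 in PH80_G+H (log2 difference -0.03, SE 1.06, adjusted p = 0.994). One untreated sample, replicate 2, was far above the other 5, and 2 of the 3 treated samples were above the remaining untreated ones. Without that sample the difference turned to 1.39 (adjusted p = 0.716). Cxcr2, the chemokine receptor by which neutrophils migrate, had 14.1, 62.1 and 8.33 in PH80 and 14.7, 13.4 and 44.9 in PH80_G+H (log2 difference 0.07, SE 0.73, adjusted p = 0.979). The list's median log2 difference was -0.37, and 0.0025 without PH80 replicate 2. Summed over the 35 listed members with deposited values, tested or not, normalised counts spanned 42230 to 133000 in PH80 and 31020 to 68100 in PH80_G+H.

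Of 20 listed clock genes, 18 were tested and 2 passed the threshold, Dbp and Nr1d1, both higher after treatment. Dbp (chromosome 7, 45705088 to 45710203), a transcription factor gene driven directly by the clock proteins CLOCK and BMAL1, went from 97, 50.1 and 129 in PH80 to 529.8, 479 and 615 in PH80_G+H. That is a log2 rise of 2.64 (SE 0.41, 95% interval 1.76 to 3.51, adjusted p = 0.0246). The 3 treated samples lay above all untreated ones and below all PH70 samples (2113, 1340.0 and 671). Nr1d1 (chromosome 11, 98767932 to 98775333), which encodes the repressor REV-ERB alpha, had 173, 369 and 692 in PH80 and 1698, 1592 and 2057 in PH80_G+H, a log2 rise of 2.32 (SE 0.38, adjusted p = 0.031). It was likewise below every PH70 sample (4027, 3023 and 2955).

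Tef and Hlf, which encode factors of the same family as Dbp, were higher in every treated sample without passing the threshold in limma. Tef stood at 433, 506 and 578 in PH80 and 1479, 1043 and 1370.0 in PH80_G+H (log2 difference 1.35, SE 0.29, adjusted p = 0.119, and 0.00336 in DESeq2). Hlf stood at 269, 226 and 299 and 469, 429 and 438 (log2 difference 0.76, SE 0.20, adjusted p = 0.181). Over the 18 clock genes the median log2 difference was 0.70, with 9 wholly above (8.89% of all genes) and 2 wholly below (8.03% of all genes). The 2 below were Cry1, a repressor (-0.56, SE 0.24, adjusted p = 0.432), and Npas2, a partner of BMAL1 (-0.78, SE 0.35, adjusted p = 0.461), both named after their values were seen. Relative to the PH80 mean, the clock list stood at 0.74, 0.66 and 0.75 in PH80_G+H and at 0.43, 0.87 and 0.20 in PH80_HC. Its median log2 difference against PH80_HC was 0.098. Sources used here do not give the hour at which livers were taken, so time of day and treatment cannot be told apart for the clock genes. The clock's E-box CACGTG was found in 4 of 15 clock-list promoters (26.7%) and in 1144 of 9859 tested genes (11.6%). The list was made of known clock genes, so its share describes the list and not these livers. Of 11 called genes with a promoter sequence, 0 held the E-box.

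Among metabolic genes, Cyp26b1, Upp2, Lpin1, Slc2a5 and B3galt1 rose. Cyp26b1 (chromosome 6, 84571414 to 84593908), a cytochrome P450 gene whose product breaks down retinoic acid, went from 19.7, 28.4 and 47.9 in PH80 to 328, 351 and 122 in PH80_G+H, a log2 rise of 2.97 (SE 0.44, 95% interval 2.01 to 3.92, adjusted p = 0.0246). Replicate 3 was the lowest treated sample and still above all untreated ones. Upp2 (chromosome 2, 58567298 to 58792971), a uridine phosphorylase gene of pyrimidine breakdown, had 231, 336 and 495 in PH80 and 2956, 1304 and 2975 in PH80_G+H (log2 rise 2.74, SE 0.46, adjusted p = 0.0354). Its treated values overlapped those of PH70 (5572, 5584 and 2038).

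Lpin1 (chromosome 12, 16535669 to 16610966) encodes a phosphatidate phosphatase of triglyceride synthesis that also acts as a coactivator in fat oxidation. It stood at 266, 246 and 269 in PH80 and 1166, 1448 and 741 in PH80_G+H, a log2 rise of 2.05 (SE 0.30, adjusted p = 0.0246). On the list of 22 lipid-synthesis genes, Lpin1 was the single call among 21 tested. Dgat2, which makes triglyceride, differed by 0.60 (SE 0.18, adjusted p = 0.246), Plin5, a lipid-droplet protein gene, by 0.54 (SE 0.20, adjusted p = 0.338) and Dgat1 by -0.45 (SE 0.22, adjusted p = 0.504). Slc2a5 (chromosome 4, 150119283 to 150144169), the fructose transporter gene, went from 25.3, 20.2 and 27.1 to 121, 82.1 and 76.8 (log2 rise 1.89, SE 0.29, adjusted p = 0.0246). B3galt1 (chromosome 2, 67565871 to 68122689), a galactosyltransferase gene, went from 146, 170.5 and 203 to 436, 396 and 418 (log2 rise 1.27, SE 0.17, adjusted p = 0.0246). For Slc2a5 and B3galt1 the treated samples lay between the groups, above all PH80 and below all PH70 samples.

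The 1 gene that fell was Gpx7 (chromosome 4, 108400390 to 108406961), which encodes a peroxidase of the endoplasmic reticulum. Its values were 1015, 1001 and 746 in PH80 and 436, 386 and 352 in PH80_G+H, a log2 difference of -1.22 (SE 0.20, 95% interval -1.66 to -0.79, adjusted p = 0.0337). All treated values were below all untreated and all PH80_HC values, and they overlapped the PH70 values (406, 360.1 and 317). Gpx7 stood on a list of 17 genes of the antioxidant response with 16 tested, of which it was the single call. Akr1b7, an aldo-keto reductase gene, had 369.9, 1974 and 354 in PH80 and 138, 134 and 184 in PH80_G+H (log2 difference -2.08, SE 0.60, adjusted p = 0.224). Its highest value was that of PH80 replicate 2, and without that sample the difference was -1.26 (adjusted p = 0.59). Gpx3, a secreted peroxidase, differed by -1.23 (SE 0.39, adjusted p = 0.266), and by -0.66 without PH80 replicate 2 (adjusted p = 0.614). Gclc, which makes the first step to glutathione, differed by 0.55 (SE 0.26, adjusted p = 0.483).

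**Figure D3:**
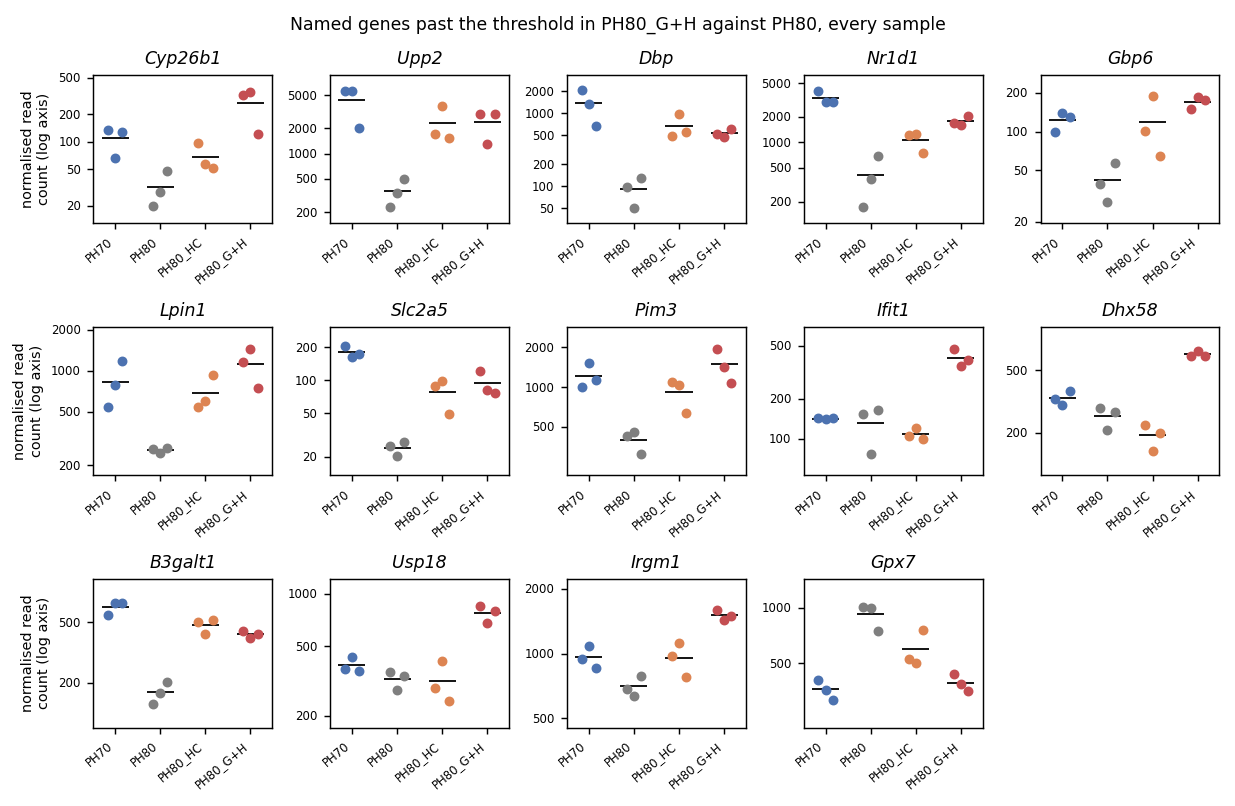
Normalised read counts of the named genes past the threshold in every sample, on log axes that differ between panels; points are samples, 3 per group in the order of replicates 1 to 3, and lines are group means. The PH80_G+H points lie above all PH80 points for every gene drawn except Gpx7, for which they lie below; for Ifit1, Dhx58, Usp18 and Irgm1 they lie above all 9 other samples.

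Other hepatocyte functions had higher means in treated livers without a call in limma. The counts of these lists stand beside 8.89% of all genes tested whose treated samples lay wholly above the untreated ones and 5.56% that were higher at an unadjusted p under 0.05. For the lower direction these shares were 8.03% and 4.89%. All 20 coagulation genes had a higher treated mean (median log2 difference 0.34), 10 of them with no overlap and 2 at an unadjusted p under 0.05. So did all 17 tested complement genes of 18 listed (median 0.48), 8 with no overlap and 8 at an unadjusted p under 0.05. Of 30 listed phase I drug-metabolising genes, mostly P450s, 25 were tested, 23 had a higher treated mean (median 0.73), 11 did not overlap and 13 were at an unadjusted p under 0.05. Of 21 genes of glucose output and glycogen, 20 were tested (median 0.53), 9 did not overlap in the higher direction and 1 in the lower, and 9 were higher at an unadjusted p under 0.05. G6pc, the phosphatase that releases glucose, went from 2454, 1794 and 1446 to 3694, 5061 and 5118 (log2 difference 1.30, SE 0.30, adjusted p = 0.137), and Pck1, which starts the path from pyruvate metabolites to glucose, from 8413, 19120 and 7716 to 31800, 33390 and 33420 (1.61, SE 0.47, adjusted p = 0.224). Both were named after their values were seen. Among 24 genes of fatty acid oxidation the median was 0.52, with 10 not overlapping and higher, and 10 higher and 1 lower at an unadjusted p under 0.05. Without PH80 replicate 2 the medians were 0.35 for coagulation, 0.40 for complement, 0.54 for phase I genes, 0.38 for glucose output and 0.31 for fatty acid oxidation. Higher genes at an unadjusted p under 0.05 then numbered 1 for coagulation, 3 for complement, 11 for phase I, 5 for glucose output and 5 for fatty acid oxidation, beside 4.27% of all genes. Against PH80_HC, with all samples, the medians were -0.26 for coagulation, -0.08 for complement and -0.37 for phase I genes. They were 0.12 for glucose output and 0.12 for fatty acid oxidation.

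Genes of mitosis had lower means in the treated livers throughout the list, with 0 of 29 past the threshold in limma. All 29 were lower at an unadjusted p under 0.05 (4.89% of all genes), and the median log2 difference was -1.22. In 24 the treated samples lay wholly below the untreated ones (8.03% of all genes). DESeq2 called 19 of the 29 and edgeR 0. Cdk1, the kinase that drives entry into mitosis, came nearest, with 2049, 3292 and 2116 in PH80 and 675, 1109 and 925 in PH80_G+H. Its log2 difference was -1.45 (SE 0.27, 95% interval -2.04 to -0.87, adjusted p = 0.0652 in limma, 0.0647 in edgeR and 0.000261 in DESeq2). Mki67, the gene of the proliferation marker Ki-67, had 1298, 3119 and 1428 and 1038, 1192 and 772 (log2 difference -0.87, SE 0.33, adjusted p = 0.346). In both genes the highest untreated value was that of replicate 2. Without that sample the Cdk1 difference was -1.23 and the Mki67 difference -0.47. The list's median was then -0.90, and 22 of 29 were lower at an unadjusted p under 0.05 (3.14% of all genes). Neutrophil counts were also highest in that sample, and their part in the mitosis result was not tested.

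The mean log2 level of the mitosis list, relative to the PH80 mean, was -0.44, 0.66 and -0.22 in PH80 and -1.26, -0.87 and -1.55 in PH80_G+H. All 3 treated samples were below the 3 PH80 samples, and also below the PH70 samples (-0.82, -0.67 and -0.67). In PH80_HC the level was -1.37, -0.39 and -0.40, so replicate 1 of that arm lay within the treated range. Against PH80_HC the list's median log2 difference was -0.49. There, 5 of 29 genes were lower at an unadjusted p under 0.05 in limma (6.88% of all genes). Promoters of mitosis genes often hold a cell cycle homology region, the site through which repressor complexes silence them outside division. Its letters TTTGAA were found on either strand in 17 of 23 mitosis genes with a promoter sequence (73.9%), against 1436 of 9859 tested genes (14.6%). The list was made of known mitosis genes, so its share describes the list and not these livers. The 250 bases before the start of Cdk1, the mitosis gene nearest to the threshold, are given from the minus strand at chr10:69352913-69353162 (RefSeq, GRCm38.p6), 5′ to 3′, with the 2 matches in capitals.
Cdk1: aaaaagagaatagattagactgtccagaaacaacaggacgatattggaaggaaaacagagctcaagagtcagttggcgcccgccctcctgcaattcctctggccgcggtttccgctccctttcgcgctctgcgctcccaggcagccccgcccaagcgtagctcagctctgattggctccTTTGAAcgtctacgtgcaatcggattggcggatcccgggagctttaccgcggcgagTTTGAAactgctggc
Of 30 DNA-replication genes, 18 had a lower treated mean (median -0.11), 0 were called in limma, 1 was higher and 2 were lower at an unadjusted p under 0.05. Without PH80 replicate 2 their median turned to 0.06, with 1 higher and 0 lower at that p. Ccnd1, the cyclin of cell cycle entry, stood at 4706, 5003 and 5954 in PH80 and 5269, 10460 and 7114 in PH80_G+H (log2 difference 0.49, SE 0.26, adjusted p = 0.534). The alpha-fetoprotein gene Afp, which is silent in adult liver and can return during regeneration, had 442, 466 and 442 and 177, 259.7 and 239 (log2 difference -1.01, SE 0.48, adjusted p = 0.481), with every treated sample below every untreated one.

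None of the 3 vessel genes followed by name passed the test. Stab2, a scavenger receptor of the liver sinusoid, differed by 0.15 (SE 0.23, 95% interval -0.34 to 0.64, adjusted p = 0.844) and Pecam1, the endothelial adhesion molecule CD31, by 0.15 (SE 0.22, interval -0.32 to 0.61, adjusted p = 0.841). Vegfa, the growth factor of vessels, differed by -0.08 (SE 0.30, interval -0.73 to 0.57, adjusted p = 0.944). Of 20 sinusoidal endothelial genes, 0 were called in limma, 2 were higher at an unadjusted p under 0.05 (5.56% of all genes), and the median was 0.20. Their summed counts spanned 24480 to 25880 in PH80 and 27040 to 27630 in PH80_G+H. The sums were higher still in PH80_HC (28480 to 35380) and PH70 (30720 to 35050). Of 20 macrophage genes, 19 were tested, 17 had a lower treated mean (median -0.35), 0 were called in limma and 2 were lower at an unadjusted p under 0.05 (4.89% of all genes). Without PH80 replicate 2 the macrophage median was -0.15, with 1 higher and 0 lower at that p. Ribosomal protein genes had a median of -0.56 over 60 tested of 62 listed, with 0 called in limma and 0 at an unadjusted p under 0.05. In 59 of the 60 the treated mean was lower, and 6 lay wholly below (8.03% of all genes). PH80_G+H replicate 2, the sample of these 6 with the steepest length trend, was the lowest of the 6 in these short genes (-0.12, -1.21 and -0.24 in PH80_G+H relative to the PH80 mean). The part of that trend in the ribosomal difference was not tested.

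Set against the HC arm, several interferon genes and Mup1 were higher in PH80_G+H, and the chemokine genes Ccl5 and Cxcl9 were lower. Against PH80_HC, 23 genes passed the threshold (0.188% of genes tested), 18 higher and 5 lower. Ifit1 (log2 difference 1.90, SE 0.26, adjusted p = 0.0123 in limma), Dhx58 (1.73, SE 0.19, adjusted p = 0.00256) and Usp18 (1.33, SE 0.20, adjusted p = 0.0266) were called here as well as against PH80. Both comparisons use the same PH80_G+H samples. The interferon list was mixed against PH80_HC, with 22 members higher and 9 lower in PH80_G+H (median 0.31). At an unadjusted p under 0.05 in limma, 11 members were higher and 5 lower. Rsad2 was called (1.68, adjusted p = 0.0417), as were Oasl1 (2.12, adjusted p = 0.0228) and Oasl2 (1.23, adjusted p = 0.0411), which encode proteins of the oligoadenylate synthetase family. The highest difference among the calls was that of Mup1, a major urinary protein gene, with 71.3, 51.6 and 51.9 in PH80_HC and 567, 392 and 454 in PH80_G+H (2.99, SE 0.32, adjusted p = 0.00256), a gene with near-identical copies whose counts are uncertain. Ccl5, a chemokine of T cells, had 155, 245 and 328 in PH80_HC and 16.6, 11.9 and 30.6 in PH80_G+H (-3.59, SE 0.63, adjusted p = 0.0411), and Cxcl9 had 324, 754 and 458 and 92, 87.1 and 90.4 (-2.41, SE 0.41, adjusted p = 0.0397). The genes of this paragraph other than Ifit1, Dhx58 and Usp18 were named after their values were seen. All 7 MHC class II genes had a lower mean in PH80_G+H than in PH80_HC and an unadjusted p under 0.05, with 0 called in limma. Over all genes tested, 6.88% were lower and 6.63% higher at that p in this comparison. Markers of lymphocytes and macrophages also had lower means in PH80_G+H than in PH80_HC. Of 12 tested lymphocyte markers, Ccl5 among them, 10 had a lower mean (median -1.88), 6 with an unadjusted p under 0.05. Summed over the 19 listed lymphocyte markers with deposited values, counts spanned 681 to 1581 in PH80_HC and 178 to 429 in PH80_G+H. All 19 tested macrophage markers had a lower mean (median -0.80), 9 with an unadjusted p under 0.05. Sums over the 20 listed macrophage markers, tested or not, were 31340 to 53400 in PH80_HC and 19090 to 26210 in PH80_G+H. No tested marker of either list was at 0 in these samples, and their part in the differences of Ccl5, Cxcl9 and the MHC class II genes was not tested.

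The number of calls against PH80_HC depended on single samples. Leaving out any 1 PH80_G+H replicate, or PH80_HC replicate 3, gave 2 calls, and leaving out PH80 replicate 2 gave 52. Without PH80_HC replicate 1 there were 42 calls, and without PH70 replicate 1 or replicate 2 there were 15 or 9.

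Against the 70% resection, 0 of 12260 genes (0%) passed the threshold in limma; unadjusted p-values under 0.05 numbered 728. edgeR also called 0, DESeq2 called 61, and limma without PH80 replicate 2 or PH80_HC replicate 2 called 2 or 1. Among the genes at the smallest adjusted p, 0.138, were Ifit1 (log2 difference 1.50, SE 0.26), Dhx58 (0.93, SE 0.19), Usp18 (0.999, SE 0.20) and Ccnd1 (1.38, SE 0.26). A count of 0 does not show that the treated 80% remnant was like the 70% remnant. For Dbp the difference from PH70 was -1.20 (SE 0.41) and for Cyp8b1 -2.01 (SE 0.86). Relative to the PH80 mean, the interferon list stood at 0.90, 0.80 and 0.92 in PH80_G+H, at 0.16, -0.31 and 0.15 in PH80, at 0.37, 0.44 and 0.31 in PH70 and at 0.38, 0.86 and 0.31 in PH80_HC. Every treated sample was thus above all PH80 and PH70 samples in this list, and PH80_HC replicate 2 lay within the treated range.

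**Figure D4:**
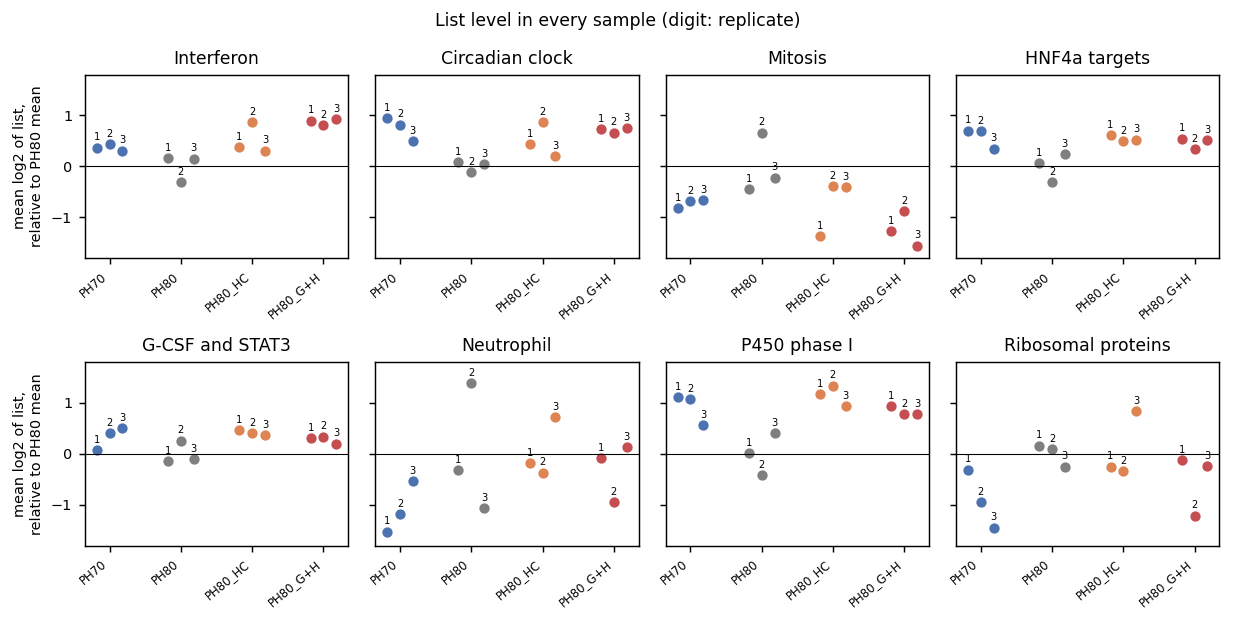
Each point is 1 sample, and the y axis is the mean log2(value + 1) of a list's tested members relative to the mean of the 3 PH80 samples; digits give the replicate. PH80_G+H lies above PH80 without overlap for the interferon, clock, HNF4a target and P450 lists and below it for mitosis, while PH80 replicate 2 is the highest sample in the neutrophil and mitosis lists.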

How the data were processed

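RNA-seq of mouse liver was analysed in 12 samples, 3 in each of 4 groups, from the table of normalised read counts that the authors deposited. Per the labels' protocols, RNA was purified on Qiagen columns, and 100 ng of it went into each poly(A) library (TruSeq Stranded mRNA). GRCm38, also called mm10, is the build and DESeq2 the tool named in the submitters' processing notes. Aligner, counter and annotation: not given in the sources used here. Each deposited signal value is a read count divided by 1 size factor per sample: dividing out the smallest step gave whole reads for 100% of values (tolerance 0.01), which returned the depth and allowed count tests. Depth limits precision most for genes near 10 normalised reads, where 3 reads were worth 1.48 to 6.69 normalised reads per sample.

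The 12260 genes tested reached 10 normalised reads in 3 or more of the 6 PH80 and PH80_G+H samples. The test was limma 3.58.1 in R 4.3.3 on log2(value + 1), with group as the single factor over all 12 samples, an intensity trend, two-sided p-values, Benjamini-Hochberg adjustment over all genes tested and a threshold of 0.05. Contrasts were PH80_G+H against PH80, PH80_HC and PH70. Fold changes on this scale understate changes of low genes. Alternatives were edgeR 4.0.16 (quasi-likelihood) and DESeq2 1.42.0 on recovered reads, no trend, only the 6 samples, pseudocounts of 0.5 and 5, no filter or a filter at 50, other scalings, removal of each sample's length trend, a replicate block, and leaving out samples. The test was run on simulated data first.

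Named genes were up to 12 called genes per direction with the largest log2 change, a mean of at least 50, no overlap between groups and no predicted-gene symbol, from every list that held a call up to 4 members by smallest adjusted p, and 19 genes followed in every case; some of these genes are not reported here. The comparison, the lists and these rules were chosen with earlier results of these data known. Group labels come from the sample labels. Same-numbered PH80 and PH80_G+H samples correlated at 0.247, 0.14 and 0.0239 in their deviations from the group means. For differently numbered samples the values ranged from -0.339 to 0.19. These values do not settle pairing, and numbers were not treated as pairs in the main test. Gene positions are those of GENCODE M21 on GRCm38, where 13513 of 13554 symbols matched 1 gene, and promoters are those of RefSeq on GRCm38.p6.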

Additional observations from a re-analysis of the deposited data

Results flagged for a closer look

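Ifit1, Dhx58 and Usp18 stood apart because the 2 treated 80% arms differed in them. The log2 difference of PH80_G+H minus PH80_HC was 1.90 for Ifit1 (adjusted p = 0.0123 in limma), 1.73 for Dhx58 (adjusted p = 0.00256) and 1.33 for Usp18 (adjusted p = 0.0266), with all 3 PH80_G+H samples above all 3 PH80_HC samples in each gene.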

How the results depend on the processing

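Over 25 alternatives, 44 genes chosen by the naming rule gave 1099 values, of which 908 kept their direction and side of the threshold, 155 lost a call, 11 gained one and 25 turned sign. For 7 lists run under every alternative, 174 of 175 medians kept their sign. Over all 49 lists, 6 medians turned sign without PH80 replicate 2, among them those of DNA replication (-0.11 to 0.060), cell cycle entry (-0.024 to 0.0040), the acute phase (-0.037 to 0.21) and stellate matrix genes (-0.056 to 0.055). The 15 calls against PH80 (14 higher, 1 lower) became 0 without the intensity trend, with equal totals, or with PH80 replicate 1 and PH80_G+H replicate 2 both left out (1267, 1147 and 815 genes at an unadjusted p under 0.05). They became 204 with DESeq2 (100 higher, 104 lower), 29 with the length trend removed (8 lower), 29 at a threshold of 0.1, chosen after seeing the data, and 9 with a replicate block (6 higher, 3 lower). With only the 6 samples, 3 genes were lower. Leaving out each sample gave 0 to 26 calls, 0 to 19 higher and 0 to 10 lower. Against PH80_HC the 23 calls became 37 without a filter, 292 with DESeq2, 3 with both samples left out and 7 with the replicate block, and 2 to 52 when each sample was left out. Against PH70 the 0 calls became 5 with only the 6 samples, 1 without a filter and 61 with DESeq2, and 0 to 2 when each sample was left out. The cause of these shifts was not tested. Correlations between PH80 and PH80_G+H samples cannot settle whether same-numbered samples are pairs.

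The values that turned sign were all of genes or lists without a call. Cxcr2 was at -0.016 with equal totals, -0.24 in edgeR and -0.22 in DESeq2, and Socs3 at -0.10 in edgeR, -0.090 in DESeq2 and -0.16 with both samples left out. With both left out, S100a8 was at 0.33, Apoa1 at 0.24 and Vegfa at 0.18, and with the length trend removed S100a8 was at 0.14 and Apoa1 at 0.016. Leaving out each sample gave -0.82 to 0.31 for Csf3r, -0.50 to 0.88 for Cxcr2, -0.89 to 1.39 for S100a8, -0.28 to 0.22 for Apoa1, -0.0076 to 0.54 for Ttr and -0.046 to 0.35 for Stab2. It gave -0.024 to 0.26 for Pecam1, -0.28 to 0.12 for Vegfa, -0.14 to 0.96 for Socs3 and -0.76 to 0.0025 for the neutrophil median.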

Other observations

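At an adjusted p under 0.1 in limma, a threshold chosen after seeing the data, 29 genes differed between PH80_G+H and PH80, 19 higher and 10 lower. They included Gdf15, a stress-induced secreted factor (log2 difference 1.33, adjusted p = 0.0618), Rnf213, an interferon-inducible ubiquitin ligase (1.05, adjusted p = 0.0618), Hbegf, a ligand of the EGF receptor (-1.60, adjusted p = 0.078), Tlr1, a receptor of bacterial lipopeptides (-1.91, adjusted p = 0.0618), and S100a6, a calcium-binding protein gene (-1.69, adjusted p = 0.0618). These genes were picked after their values were seen.

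Of 24 listed genes of the male, growth-hormone-driven liver programme, 22 were tested and 21 had a higher mean in PH80_G+H than in PH80, with a median log2 difference of 0.59, 9 higher at an unadjusted p under 0.05 (5.56% of all genes) and 0 called in limma. PH80 replicate 2 was the lowest of the 3 PH80 samples in this list (0.16, -0.85 and 0.69 relative to the PH80 mean). Without it the median was 0.38, with 1 higher and 1 lower at that p. Against PH80_HC the median of this list was 0.30, and Mup1 and Mup7 were called, both higher in PH80_G+H. All 19 genes of cholesterol synthesis had a higher mean in PH80_G+H than in PH80_HC (median 0.58), 11 of them at an unadjusted p under 0.05 (6.63% of all genes) and 0 called in limma. Against PH80 their median was 0.27 (0.084 without PH80 replicate 2), with 17 of 19 higher and 0 at an unadjusted p under 0.05.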
